A study of Mus musculus with 6 samples.

Results

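The genes described here are 10 genes of primordial germ cell (PGC) specification: Prdm1, Prdm14, Tfap2c, Dppa3, Ifitm1, Ifitm3, Nanos3, Alpl, Itgb3 and Kdm3a. They were chosen by name, as regulators and markers of the founding germ line, with earlier results of these data known. Every probe that the array listed under any of these symbols or an older symbol was taken. Tfap2c was listed as Tcfap2c, Alpl as Akp2 and Kdm3a as Jmjd1a. These rules found 12 probes of 9 genes, out of 41174 probes and 27677 named genes. No probe was listed under Prdm14, which was not analysed here. Itgb3 had 2 probes, Kdm3a had 3 and the other 7 genes had 1 each.

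Primordial germ cells are the embryonic precursors of sperm and eggs. In mouse they are set aside from the epiblast in response to BMP and WNT signals, which switch on the transcriptional regulators PRDM1, PRDM14 and TFAP2C; together these repress the somatic programme and bring back genes shared with pluripotent cells. Cells that have taken this fate are recognised by DPPA3 (also called STELLA), by the interferon-induced transmembrane protein IFITM3 (fragilis), by tissue-nonspecific alkaline phosphatase (encoded by Alpl) and by the integrin beta 3 subunit on the surface. Many of these genes, among them Tfap2c, Dppa3, Ifitm1, Ifitm3 and Alpl, are also expressed in embryonic stem cells, so their presence alone does not tell the cell types apart.

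The arrays held RNA from male mouse cells of a mixed C57BL/6 129SV background, differentiated in vitro from Oct4-GFP embryonic stem cells; the labels call the sorted cells PGCs. All groups carried a vector with a tdTomato marker, and cells positive for both GFP and tdTomato were sorted, so that every sample was selected for activity of the Oct4 reporter. The Dazl knockdown groups carried hairpin 1 or hairpin 2 against Dazl, which encodes a germ cell RNA-binding protein, and the control groups carried a control vector. Each day of differentiation, 12 or 9, had 1 array of hairpin 1, 1 array of hairpin 2 and 1 array of the control vector, 6 arrays in all. The hairpins are numbered as in the labels; the scanner files number them otherwise. No label states whether samples are separate cultures; p-values cover no more than sample-to-sample spread, which may be technical. Arrays of a day were on 1 slide scanned once, and the effects of day and of slide cannot be told apart, while each knockdown array has its control on its own slide. Each vector took the same position on both slides, which leaves position and vector impossible to separate.

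The array-wide values were similar across samples: 75th percentiles of the processed signal lay between 629 and 745, and 70.3% to 73.3% of the probes were well above background. The hairpins lowered their target, with 3.80% and 5.07% of the control signal left at the 2 Dazl probes (knockdown differences of -4.72 and -4.30 on the log2 scale, limma adjusted p = 0.00463 and 0.0546). Levels below are log2 of the processed signal over the array's 75th percentile, which allow comparison of 1 probe between arrays but not of different probes. Differences are log2 differences, with a standard error (SE) from a fit over all arrays, and "called" means an adjusted p under 0.05 over all 30228 probes tested. In these bulk samples, fewer cells with a transcript and less of it per cell cannot be told apart.

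All 12 probes were well above background on all 6 arrays, as were 27561 of all 41174 probes, and none of the 12 was saturated. Of the other genes fixed as PGC markers, Pou5f1 (whose reporter was used for sorting), Kit and Dnd1 were also well above background on every array. The Nanos3 probe gave low processed signals, of 35.7, 31.2, 23.5 and 51.3 on the knockdown arrays, against 41.5 and 21.0 on the control arrays. Processed signals of Alpl ran from 18100 to 27700.

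**Figure D1:**
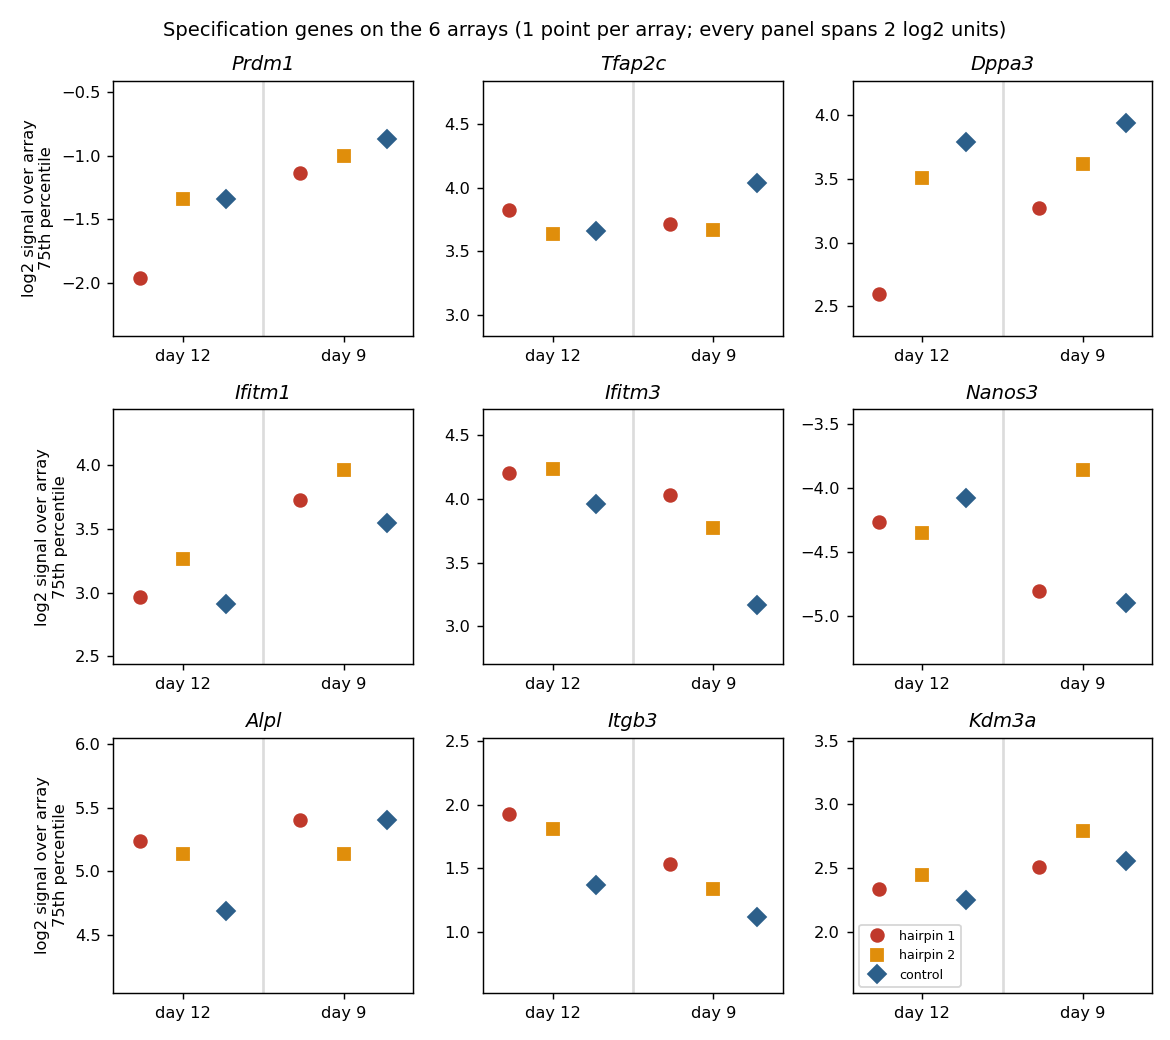
Level of the brightest probe of each of the 9 genes on each array (log2 signal over the array's 75th percentile; 1 point per array), with day 12 left of day 9 and, within a day, hairpin 1, hairpin 2 and control from left to right. Every panel spans 2 log2 units, so heights can be compared as differences. Dppa3 was lower on each of the 4 knockdown arrays than on both controls, Ifitm3 was higher on each knockdown array than on the control of its day, and Ifitm1 was lower on each day 12 array than on every day 9 array.

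The first comparison asks whether the specification genes differed between Dazl knockdown and control cells. None of the 12 probes was called, against 2 of 30228 probes in all (0.00662%). At an unadjusted p under 0.05 there were 2 of the 12, Ifitm3 and the brighter Itgb3 probe, against a background of 9.88% of all probes. Fitted knockdown differences of the 12 probes ran from -0.62 (Dppa3) to 0.50 (Ifitm3), with SEs of 0.14 to 0.32; 8 were above 0 and 4 below. Their median was 0.14, and that of all probes was -0.02. The middle 90% of all probes lay between -0.58 and 0.48, and 10 of the 12 probes lay within that range.

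Dppa3, which encodes a maternal and germ cell protein that protects DNA methylation at chosen loci, had the lowest knockdown difference. At day 12 its level was 2.60 with hairpin 1 and 3.50 with hairpin 2, against 3.79 with the control vector. At day 9 it was 3.27 with hairpin 1 and 3.61 with hairpin 2, against 3.94 in control. The 4 knockdown arrays thus lay below both control arrays, and Dppa3 was the one probe of the 12 whose vectors did not overlap in this direction, against 11.9% of all probes. No probe of the 12 had all knockdown arrays above both controls, against 8.65%. The fit gave a knockdown difference of -0.62 (SE 0.28), a 1.53-fold lower level whose 95% interval of the log2 difference ran from -1.30 to 0.07. It was not called (limma adjusted p = 0.542). A block for the vector takes the difference between the hairpins out of the error. With it the SE was 0.18 and the limma adjusted p was 0.283.

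Of 9 markers of germ cells after specification, 8 were measured and all 8 had a negative knockdown difference (median -0.53). Dazl itself is among them, and none was called at its brightest probe. Unadjusted p was under 0.05 for 6 of the 8, Dazl included, against 9.88% of all probes. After Dazl, the largest differences were those of Mael, a piRNA pathway gene (-0.80, SE 0.22), and Stra8, which is induced by retinoic acid before meiosis (-0.75, SE 0.26). The summed level of the 8, in multiples of the array's 75th percentile, was 211 and 162 at day 12 on the knockdown arrays, against 261 in control, and 117 and 85.0 at day 9, against 185 in control. Stra8 held 67.6% to 83.1% of that sum, and the other 7 summed to 35.6 and 39.1 at day 12 on the knockdown arrays, against 55.1 in control, and to 29.5 and 27.5 at day 9, against 41.9 in control. The part of these markers in the Dppa3 difference was not tested.

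The transcriptional regulators showed smaller differences. Prdm1 (BLIMP1) encodes the zinc finger repressor that founds the lineage. Its level at day 12 was -1.96 with hairpin 1 and -1.34 with hairpin 2, against -1.34 in control. At day 9 it was -1.14 and -1.003, against -0.87 in control. It was lower in 3 of the 4 pairs and hairpin 2 at day 12 was level with its control; the knockdown difference was -0.25 (SE 0.21, limma adjusted p = 0.729). Without the day 12 hairpin 1 array it was -0.11.

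Tfap2c, the AP-2 gamma factor that acts downstream of PRDM1 in the same circuit, stood at 3.83 with hairpin 1 and 3.64 with hairpin 2 at day 12, against 3.66 in control. Its levels at day 9 were 3.72 and 3.67, against 4.03 in control. Both hairpins were lower than control at day 9 only, and the groups overlapped over the 2 days (difference -0.13, SE 0.16, limma adjusted p = 0.833; 95% interval -0.54 to 0.27). Without the day 9 control array it was 0.075.

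Nanos3, an RNA-binding protein that keeps migrating PGCs alive, had levels of -4.26 and -4.35 on the knockdown arrays at day 12, against -4.08 in control. At day 9 they were -4.80 with hairpin 1 and -3.86 with hairpin 2, against -4.90 in control. The arrays of the 2 vectors overlapped widely, and the hairpin 2 array of day 9 alone held the highest value. The knockdown difference was 0.17 (SE 0.32), and its sign turns when single arrays are left out: it was -0.23 without the day 9 control and -0.088 without the hairpin 2 array of day 9. Its 95% interval of -0.60 to 0.95 was the widest of the 12.

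Kdm3a (JMJD1A) encodes a demethylase of histone H3 lysine 9, a mark that falls as PGCs reprogramme. Its brightest probe had 2.34 and 2.44 on the knockdown arrays at day 12, against 2.25 in control, and 2.51 and 2.79 at day 9, against 2.56 in control. The groups overlapped and the difference was 0.12 (SE 0.15, limma adjusted p = 0.846), and 0.059 without the day 9 hairpin 2 array. Its other probes gave 0.25 (SE 0.14; A_51_P489406, higher in all 4 pairs and designed to a cDNA clone) and -0.01 (SE 0.18; A_52_P133965). The 3 probes of Kdm3a therefore did not share a sign, and none was called.

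The surface markers had knockdown differences above 0, again without a call. Alpl stood at 5.24 with hairpin 1 and 5.14 with hairpin 2 at day 12, against 4.69 in control. At day 9 it stood at 5.40 and 5.14, against 5.40 in control. Both hairpins were above control at day 12 and neither was at day 9 (knockdown difference 0.18, SE 0.20, limma adjusted p = 0.808). Without the day 12 control array it was -0.13.

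Itgb3 gave different readings at its 2 probes. The brighter probe (A_52_P553890) had 1.92 and 1.81 on the knockdown arrays at day 12, against 1.37 in control, and 1.53 and 1.34 at day 9, against 1.12 in control. It was higher in all 4 pairs, by 0.41 in the fit (SE 0.15, 1.32-fold, limma adjusted p = 0.473). This probe was designed to an embryonic gonad cDNA clone that the array annotation calls unclassifiable and places under Itgb3. The probe to the Itgb3 mRNA itself (A_51_P237893) had -1.86 and -1.67 on the knockdown arrays at day 12, against -2.16 in control, and -1.89 and -2.23 at day 9, against -1.90 in control. It was higher in 3 of 4 pairs, by 0.12 in the fit (SE 0.20, limma adjusted p = 0.892), so the larger difference rests on the clone alone.

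Ifitm3 had the highest knockdown difference of the 12. The interferon-induced transmembrane proteins are small membrane proteins known for blocking virus entry, and Ifitm3 was found as a marker of cells gaining germ cell competence. Ifitm3 had levels of 4.20 with hairpin 1 and 4.24 with hairpin 2 at day 12, against 3.96 in control. At day 9 its levels were 4.03 and 3.77, against 3.17 in control. Every knockdown array was above the control of its day, while the day 12 control was above the day 9 hairpin 2 array. The knockdown difference was 0.50 (SE 0.18), a 1.41-fold higher level with a 95% interval of 0.07 to 0.93, and it was not called (limma adjusted p = 0.465). It was 0.26 without the day 9 control array and 0.73 without the day 12 control array.

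Ifitm1, its neighbour on chromosome 7, had levels of 2.97 with hairpin 1 and 3.26 with hairpin 2 at day 12, against 2.91 in control. At day 9 they were 3.72 and 3.96, against 3.54 in control. It too was above control in all 4 pairs, by 0.25 in the fit (SE 0.16, limma adjusted p = 0.664). Of the 12 probes, 4 were higher in all 4 pairs (Ifitm3, Ifitm1, the brighter Itgb3 probe and 1 Kdm3a probe), against 14.9% of all probes.

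**Figure D2:**
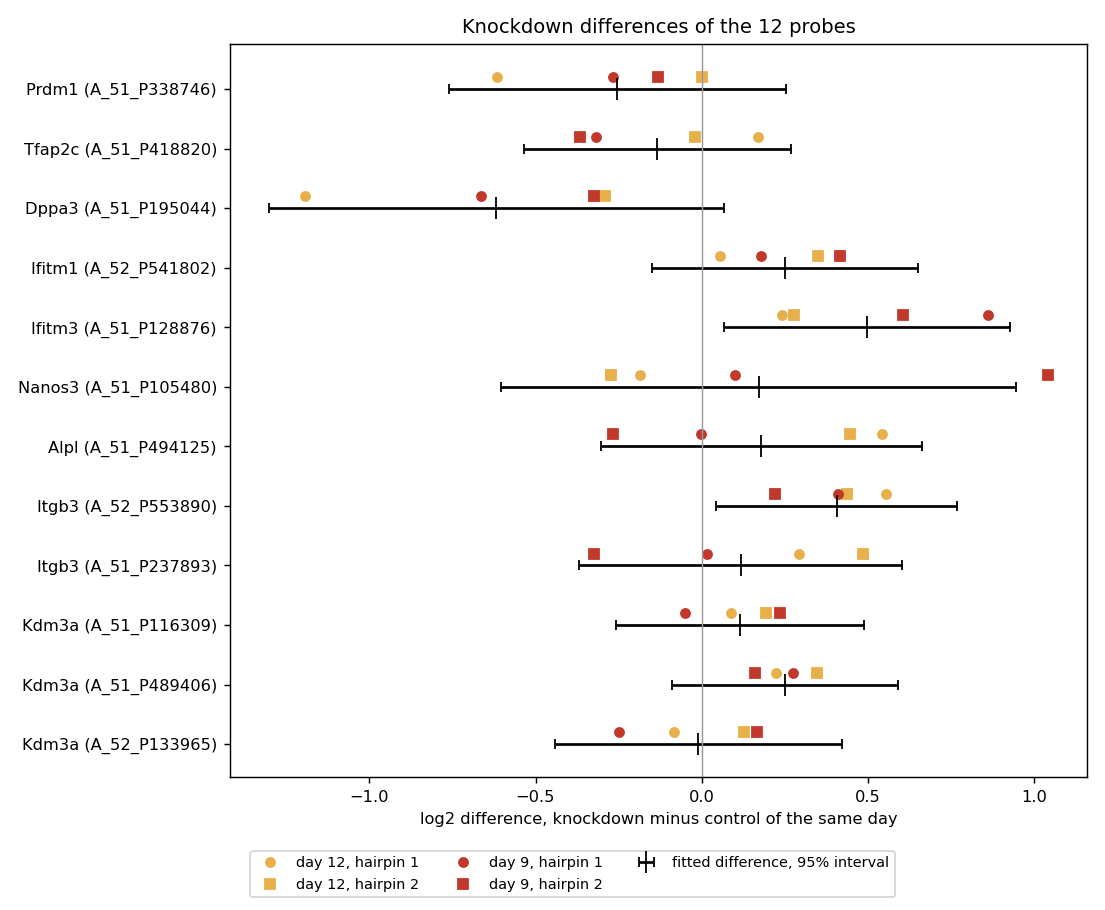
Log2 difference of each of the 12 probes between knockdown and control: symbols are single knockdown arrays minus the control array of the same day, and the bar with its tick is the fitted difference with its 95% interval. Dppa3 lies to the left of 0 in all 4 pairs; 4 probes lie to the right in all 4. The intervals of Ifitm3 and the brighter Itgb3 probe exclude 0 before adjustment over all probes.

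The other measured Ifitm genes had differences of the same sign. Of the family's probes, 8 of 7 genes passed the filter on dim probes, Ifitm1 and Ifitm3 included; a further Ifitm10 probe was not well above background on any array. All 8 had a positive knockdown difference, from 0.06 for Ifitm10 to 0.56 for Ifitm6 (median 0.35), and 6 were higher in all 4 pairs, against 14.9% of all probes. The Ifitm6 probe was well above background on 5 arrays, not on the day 9 control. None was called, and 2 had an unadjusted p under 0.05, against 9.88% of all probes. Ifitm7 had a difference of 0.37 (SE 0.14, limma adjusted p = 0.481), and the 2 Ifitm2 probes gave 0.28 (SE 0.18) and 0.33 (SE 0.15). Members of this family are similar in sequence, so probes may share transcripts, and they are not independent of one another.

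The promoters of Ifitm3 and Ifitm1 are shown because these neighbours had day differences of opposite sign (given below) and the family is named for its induction by interferon. Both are RefSeq windows of GRCm38.p6, from 250 bases before to 50 bases after a listed start, read along the gene's strand: Ifitm3 at chr7:141010695-141010994 on the minus strand and Ifitm1 at chr7:140967826-140968125 on the plus strand. The Ifitm1 gene begins at chr7:140967429, so its window lies inside the gene, while the Ifitm3 window spans that gene's outermost start. Capitals mark matches to the core of the interferon-stimulated response element, spelled GAAA, then 2 bases of any kind, then GAAA, and searched on both strands.
Ifitm3: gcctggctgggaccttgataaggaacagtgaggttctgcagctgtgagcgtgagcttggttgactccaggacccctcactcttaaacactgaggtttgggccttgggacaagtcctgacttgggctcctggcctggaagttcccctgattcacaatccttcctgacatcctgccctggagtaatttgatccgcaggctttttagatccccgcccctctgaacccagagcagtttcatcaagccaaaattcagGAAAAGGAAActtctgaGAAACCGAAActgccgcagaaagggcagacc
Ifitm1: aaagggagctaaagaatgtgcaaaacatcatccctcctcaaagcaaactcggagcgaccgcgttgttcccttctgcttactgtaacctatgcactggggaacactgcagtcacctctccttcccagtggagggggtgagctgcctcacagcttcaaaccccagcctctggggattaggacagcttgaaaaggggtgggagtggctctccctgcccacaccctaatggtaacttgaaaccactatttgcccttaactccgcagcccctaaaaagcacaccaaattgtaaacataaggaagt
The Ifitm3 window held 2 matches, whose first bases were 253 and 270 of the window counted from 1, so both lay just after the start. The Ifitm1 window held no match to these letters. The outermost start of Ifitm1 was not searched, so the 2 windows do not compare like positions. Over all 32851 promoter windows of this length, 1131 held a match (3.44%). The table had 9 windows for 6 of the 10 genes, and Ifitm3's was the one with a match. A second motif, the AP-2 site GCCNNNGGC bound by factors such as TFAP2C, was found in windows of Alpl and Nanos3 and in 16.6% of all windows. A match describes the letters and no binding was measured.

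The second comparison asks how the specification genes differed between day 12 and day 9. No specification gene was called, against 17 of 30228 probes (0.0562%). At an unadjusted p under 0.05 there were 5 of the 12, against 10.7% of all probes. The 5 were Ifitm1, Prdm1 and the Kdm3a probe A_51_P489406, which were lower at day 12, and Ifitm3 and the brighter Itgb3 probe, which were higher. The median day difference was -0.28 for the 12 probes and 0.00386 for all probes, with 4 of the 12 above 0 and 8 below. All 3 day 12 arrays were below all 3 day 9 arrays for 4 of the 12 probes, against 7.58% of all probes. The opposite arrangement was found for 0 of 12, against 8.69%.

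Ifitm1 had the largest day difference. Its 3 arrays of day 12 ranged from 2.91 to 3.26 and its 3 arrays of day 9 from 3.54 to 3.96, with no overlap. The difference was -0.69 (SE 0.15), a 1.62-fold lower level at day 12 with a 95% interval of -1.07 to -0.32 (limma adjusted p = 0.194). Over the alternatives tried it ran from -0.80 to -0.60 and its adjusted p from 0.102 to 0.611.

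Prdm1 averaged -1.55 ± 0.36 at day 12 and -1.004 ± 0.13 at day 9 (SD, n = 3 each), and its arrays of the 2 days did not overlap. The day difference was -0.54 (SE 0.20, 1.46-fold lower, limma adjusted p = 0.403). The hairpin 1 array of day 12 was the lowest. Without it the difference was -0.36.

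Kdm3a had a negative day difference at each of its probes, of -0.27 (SE 0.14), -0.41 (SE 0.13) and -0.33 (SE 0.17). The arrays of the 2 days did not overlap at A_51_P116309 and A_51_P489406, and the lowest adjusted p was 0.346. These probes read 1 gene and are not replicates of each other.

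The day difference of Ifitm3 had the opposite sign to that of Ifitm1. Ifitm3 averaged 4.13 ± 0.15 at day 12 and 3.66 ± 0.44 at day 9 (SD, n = 3 each), and the highest day 9 array was above the lowest of day 12. The day difference was 0.48 (SE 0.17, 1.39-fold higher, limma adjusted p = 0.389). The difference between the day differences of the 2 genes was not tested. Interferon response genes had day differences of the same sign as Ifitm3: of 10 measured, 10 were higher at day 12, 8 at an unadjusted p under 0.05 (against 10.7% of all probes) and none called, with a median of 1.07. Their summed level in multiples of the 75th percentile was 85.9 and 86.6 on the knockdown arrays and 104 on the control array at day 12, against 58.1, 35.9 and 46.1 at day 9. In the knockdown comparison 9 of the 10 were negative (median -0.24), 1 of them at an unadjusted p under 0.05, against 9.88% of all probes. The pairs were mixed: at day 9 the summed level was 58.1 with hairpin 1 and 35.9 with hairpin 2, against 46.1 in control. Ifitm3 was above control in these pairs, by 0.86 with hairpin 1 and 0.61 with hairpin 2. The 3 largest knockdown differences of the interferon response genes were Ifi44 (-1.08, SE 0.36, well above background on 3 arrays), Oasl2 (-0.46, SE 0.37) and Isg15 (-0.46, SE 0.42). The part of an interferon response in the Ifitm3 values was not tested.

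**Figure D3:**
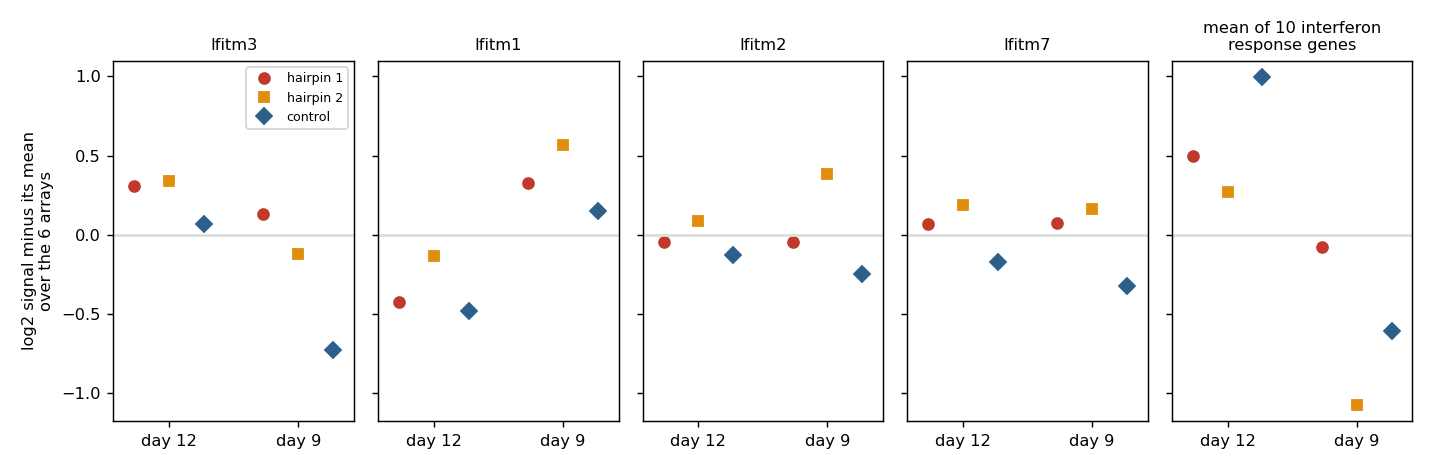
Level of Ifitm3, Ifitm1, Ifitm2 and Ifitm7 and the mean level of 10 interferon response genes on each array, each minus its own mean over the 6 arrays (log2 units), with day 12 left of day 9 and hairpin 1, hairpin 2 and control from left to right within a day. The interferon response genes were highest in the day 12 control, where Ifitm3 was lower than on both hairpin arrays of that day. At day 9 their mean was above control with hairpin 1 and below it with hairpin 2, while Ifitm3 was above control with both. Ifitm1 was lower at day 12 on all arrays.

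The brighter Itgb3 probe was higher at day 12 by 0.37 (SE 0.14, limma adjusted p = 0.430), and the probe to the Itgb3 mRNA by 0.11 (SE 0.19, adjusted p = 0.863). Dppa3 gave -0.31 (SE 0.26), Alpl -0.29 (SE 0.19) and Tfap2c -0.10 (SE 0.15). The 95% interval of the day difference was 0.03 to 0.71 at the brighter Itgb3 probe and -0.35 to 0.57 at the other. For Dppa3, Alpl and Tfap2c the days overlapped and the 95% intervals held 0. Single arrays decided these values: Dppa3 gave -0.03 without the day 12 hairpin 1 array, while Alpl gave -0.08 and Tfap2c 0.04 without the control array of either day. Nanos3 had a day difference of 0.29 (SE 0.30), which turned to -0.18 with another background correction and was 0.03 without the control array of either day. All 8 measured markers of germ cells after specification were higher at day 12 (median 0.31), 4 at an unadjusted p under 0.05 (against 10.7% of all probes). None was called, with Mael at 1.16 (SE 0.21) and Stra8 at 0.87 (SE 0.25). The part of these markers in the day differences was not tested.

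**Figure D4:**
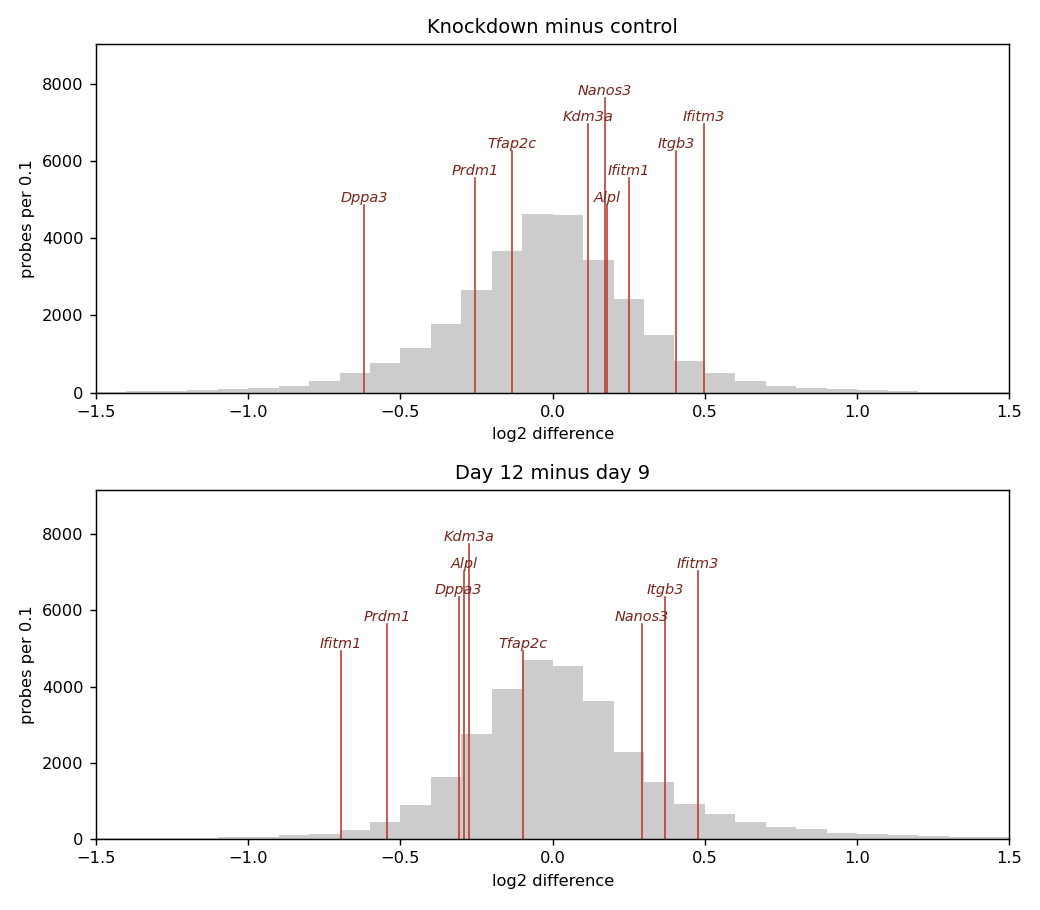
Log2 differences of all 30228 probes (grey, probes per 0.1 of log2 difference), for knockdown minus control above and day 12 minus day 9 below. The brightest probe of each specification gene is a red line. The axis is limited to -1.5 to 1.5, so larger differences lie outside, the 2 Dazl probes in the upper panel among them. Of the specification genes, Dppa3 lies furthest left and Ifitm3 furthest right in the upper panel, and Ifitm1 and Prdm1 furthest left in the lower one.

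The third comparison asks whether the knockdown difference of a specification gene changed between the days. For no probe of the 12 was the change called, nor did any have an unadjusted p under 0.05. Of all 30225 probes tested, 0 (0%) were called and 1.51% had an unadjusted p under 0.05. The estimates, which rest on 1 control array per day, ran from -0.80 for Nanos3 (SE 0.60) to 0.63 for Alpl (SE 0.36), all with a limma adjusted p of 0.9999. Ifitm3 gave -0.48 (SE 0.35), as its knockdown difference was 0.24 and 0.28 at day 12, against 0.86 and 0.61 at day 9. Dppa3 gave -0.25 (SE 0.61), with knockdown differences of -1.19 and -0.29 at day 12, against -0.67 and -0.32 at day 9.

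The fourth comparison asks whether the hairpins agreed. Dppa3 was lower with hairpin 1 at both days: its level was 3.50 with hairpin 2 at day 12, against 2.60 with hairpin 1, and 3.61 with hairpin 2 at day 9, against 3.27 with hairpin 1. The hairpin 2 minus hairpin 1 difference was 0.62 (SE 0.21, 1.54-fold, limma adjusted p = 0.405), and 0.35 without the day 12 hairpin 1 array. It was the one of the 12 probes with an unadjusted p under 0.05, against 10.6% of all probes. There were no calls among the 12, against 1 of 30228 (0.00331%). Prdm1 gave 0.38 (SE 0.19, adjusted p = 0.524), and 0.17 without the day 12 hairpin 1 array. Nanos3 gave 0.43 (SE 0.33), and the other 9 probes lay between -0.18 (Alpl) and 0.31 (Kdm3a, A_52_P133965). Without the day 12 hairpin 1 array the Dppa3 knockdown difference was -0.41. Between the hairpins, fibroblast markers were higher with hairpin 2 in 9 of 10 (median 0.84) and endothelium, platelet and blood markers in 7 of 8 (median 0.62). All 10 interferon response genes were lower (median -0.65), and endoderm markers were split, 5 higher and 5 lower (median 0.06). Unadjusted p was under 0.05 for 6 of 10 fibroblast and 4 of 8 endothelium, platelet and blood markers. It was for 3 of 10 interferon response genes and 6 of 10 endoderm markers, against 10.6% of all probes. None of these was called, and their part in the Dppa3 difference was not tested.

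Arrays of the same vector deviated together over the 2 days, so each vector was also fitted as a block. The main fit treats the arrays as independent. The block takes the difference between the hairpins out of the error, so its SE for knockdown does not cover hairpin-to-hairpin spread. Both fits compare the hairpins with a single control vector, so spread between control vectors was not measured. The block fit called 4 probes for knockdown (0.0132%), 246 for day (0.814%) and 22 for the change of the knockdown difference with day (0.0728%). None of the 12 probes was among them.

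Other genes of the PGC pathway were taken from lists. Of 17 other early PGC and pluripotency genes, all measured, 10 were higher and 7 lower in the knockdown, none called (median 0.04). The largest were Pou5f1, the OCT4 factor whose reporter was used for sorting (0.70, SE 0.16, limma adjusted p = 0.326, higher in 4 of 4 pairs), Tet2, a 5-methylcytosine oxidase (0.50, SE 0.28), and Nanog, a pluripotency factor (0.38, SE 0.30). Pou5f1 averaged 4.25 ± 0.13 in knockdown and 3.56 ± 0.06 in control arrays (SD, n = 4 and n = 2). Of all probes, 14.9% were higher in all 4 pairs.

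The 10 inducing signals and mesoderm genes were split, 5 higher and 5 lower, none called (median -0.03). T (brachyury), the mesoderm factor that acts upstream of Prdm1, gave 0.79 (SE 0.26, limma adjusted p = 0.447), and Bmp4, the inducing ligand, gave 0.47 (SE 0.22). Bmp2, a related ligand, gave 0.32 (SE 0.19). Signals of T and Bmp2 were low: T averaged -5.60 in knockdown and -6.39 in control arrays, and Bmp2 -6.38 and -6.70. The hairpin 2 minus hairpin 1 difference of T was 0.58 (SE 0.20).

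Of 7 genes that PRDM1 or PRDM14 lower in PGCs, 6 were measured, 1 higher and 5 lower in the knockdown, none called (median -0.24). Unadjusted p was under 0.05 for 2 of the 6, against 9.88% of all probes. The DNA methyltransferase genes Dnmt3b and Dnmt3a gave -0.57 (SE 0.19) and -0.55 (SE 0.21), with limma adjusted p of 0.442 and 0.477. Both were lower in 4 of 4 pairs, which does not set them apart. Among all probes, being lower in all 4 pairs was more common than being higher in all 4, which 14.9% were. Uhrf1, which guides maintenance methylation, gave -0.26 (SE 0.17). Hoxb1 did not pass the filter on dim probes. Of 16 relatives and partners of the 10 genes, 14 were measured, 9 higher and 5 lower (median 0.05). The 3 largest were Ifitm6, Ifitm5 and Ifitm7.

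Markers of other cells are given beside these results, and none was called. Of 10 measured endoderm markers 9 were higher (median 0.88, Afp 2.27 and Apoa1 2.22 among them). Of 10 fibroblast and mesenchyme markers all 10 were higher (median 0.90, Col3a1 1.48 among them). Unadjusted p was under 0.05 for 4 of the 10 endoderm and 5 of the 10 fibroblast markers, against 9.88% of all probes. Cer1, Lox and Pf4 were not well above background on either control array, so a floor stood in for their control levels. That floor was the higher of their own signal and the array's lowest signal well above background. Their mean knockdown levels were 2.02-fold, 2.26-fold and 1.51-fold above it. These means include dim knockdown arrays and are not minimum folds: Cer1 was well above background on 2 knockdown arrays, Lox on 3 and Pf4 on 3. Their fitted differences were not called (limma adjusted p = 0.636, 0.381 and 0.846). Lum was measured on 3 of the knockdown arrays and 1 of the control arrays, with a difference of 2.16. The summed levels, in multiples of the 75th percentile, were 2.21 to 3.16 in knockdown against 1.44 and 1.70 in control arrays for endoderm, and 3.58 to 8.11 against 2.18 and 5.50 for fibroblast markers. Ttr, a defining endoderm marker, was not well above background on any array. Of 8 measured endothelium, platelet and blood markers 5 were higher and 3 lower (median 0.09), with Gata1 at -1.17 and Cdh5 at -0.30. Gp1ba and Ptprc were not well above background. Itgb3, Alpl and the Ifitm genes are also expressed in such cells, and the part of these markers in their differences was not tested.

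Genes whose levels over the 6 arrays were most like those of a member were sought for the 5 genes spanning at least 1 log2 unit. Likeness was the root mean squared difference of the 6 centred log2 levels, over 15023 genes. The closest were Krtap15 (0.04) and Akap5 (0.09) for Prdm1, Synpo2 (0.13) and Tmem176b (0.16) for Dppa3, and Slc17a9 (0.06) and Tmc2 (0.07) for Ifitm1. For Ifitm3 they were Pglyrp2 (0.09) and Atad3aos (0.10), and for Nanos3 Pianp (0.08) and Parvg (0.10). With 6 arrays such likeness is a description.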

How the data were processed

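The 6 RNA samples were each measured on 1 Agilent 1-colour whole-genome array. Per the file headers, Feature Extraction 9.1.3.1 made the deposited spot intensity values, detrended and background-subtracted, with surrogate values at dim spots; arrays were not normalized to each other. The authors' deposited table gave a ratio of each spot's background-subtracted signal to its array's median, and a quality score per spot; 41526 of its 41529 entries matched exactly 1 spot, with a tolerance of 1e-05. It served as an alternative. Processed intensities were averaged per probe, scaled so that each array's 75th percentile was 0 after log2, and filtered to probes flagged well above background on 2 or more arrays (30228 probes, 20247 genes). Older array symbols were updated through RefSeq tables.

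Linear models were fitted over all probes with limma 3.58.1 in R 4.3.3 (two-sided, Benjamini-Hochberg adjustment, threshold 0.05) and tested on simulated data. Knockdown and day came from 1 fit, the change of the knockdown difference with day from a fit with 4 groups, in which a day's lone control array is assumed to vary like the knockdown pairs, and the hairpins from a fit with day and vector. Same-vector arrays correlated in their deviations across the days (r of 0.37, 0.50 and 0.24; other pairs -0.31 to -0.04, across probes), so the vector, given in the labels, was taken to pair the arrays and was also fitted as a block. Precision is limited by the number of arrays. All probes of the 10 genes were named, each gene spoken of by its brightest probe; from each list, genes past the threshold and the 3 of largest knockdown difference were named. The genes and lists were chosen with earlier results of these data known. Alternatives were normexp background correction (offset 50), quantile normalization, no filter, a filter on all 6 arrays, 1 probe per gene, trended robust variances, the deposited table, the block and each array left out.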

Additional observations from a re-analysis of the deposited data

Results flagged for a closer look

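The knockdown difference of Nanos3 changed sign with day: it was negative with both hairpins at day 12 (-0.19 and -0.27) and positive with both at day 9 (0.10 and 1.04). The difference between the days was -0.80 (SE 0.60, limma adjusted p = 0.9999), so it did not pass the test. The Alpl difference did the opposite, at 0.54 and 0.45 at day 12, against -0.00218 and -0.27 at day 9, and changed by 0.63 (SE 0.36, limma adjusted p = 0.9999). Signs that oppose in this way were seen in 13.7% of all probes. The Kdm3a probe A_52_P133965 was above control with hairpin 2 at both days (0.13 at day 12, 0.17 at day 9) and below it with hairpin 1 (-0.08 and -0.25). The hairpins differed there by 0.31 (SE 0.17, limma adjusted p = 0.540), and 7.33% of all probes showed such a split.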

How the results depend on the processing

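No probe of the 12 was called in any of the 4 comparisons under an alternative in which it was fitted (1 probe per gene holds 9 of them, and the hairpins had no block), including the fit with a replicate block (vector), in which the knockdown difference of Dppa3 was -0.62 with an adjusted p of 0.283; the block changed no call of a member. Of 477 values of the brightest probes recomputed, 460 kept their direction and 17 turned, and the lowest adjusted p was 0.0534 (Nanos3, hairpins). With normexp the Nanos3 day difference was -0.18; there the median of all probes shifted to 0.12 for knockdown, -0.14 for day, 0.21 for the hairpins and -0.15 for the change with day. The other turns came from leaving out 1 array. For knockdown, Nanos3 then ranged from -0.23 to 0.57, Tfap2c from -0.34 to 0.075 and Alpl from -0.13 to 0.49. For day, Tfap2c ranged from -0.19 to 0.042. For the change with day, Kdm3a ranged from -0.095 to 0.19, Ifitm1 from -0.24 to 0.054, Dppa3 from -0.70 to 0.20 and Prdm1 from -0.42 to 0.20. Between hairpins, Ifitm3 ranged from -0.34 to 0.12, Nanos3 from -0.16 to 1.01, Alpl from -0.40 to 0.038 and Tfap2c from -0.27 to 0.038. The change with day could not be estimated without a control array. Counts of all probes called moved more: 0 to 4 for knockdown (2 as reported), 0 to 246 for day (17), 0 to 1556 for the hairpins (1) and, with the block, 22 for the change with day (0). The cause was not tested.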
